A study of Homo sapiens with 6 samples.

Results

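The 8 genes described here encode 2 families of receptor tyrosine kinases and their ligands: the TAM receptors TYRO3, AXL and MERTK with the ligands GAS6 and PROS1, the hepatocyte growth factor receptor MET with its ligand HGF, and MST1R (also called RON), the close relative of MET. They were taken by symbol from a table of read counts for 58721 gene identifiers, in which all 8 were found, and all 8 passed the filter on low counts that left 19263 genes for testing. RNA was sequenced from A375, an established human melanoma line with a mutant BRAF gene, grown in DMEM with serum. There were 3 control libraries (labelled WT, with a guide RNA against mCherry, a gene that human cells lack) and 3 SOX10 knockout libraries (with a guide RNA against SOX10, the transcription factor of the melanocyte and glial lineages). The labels name neither a clone nor a pool of edited cells, nor do they say whether the libraries of a group came from separate cultures. The p-values therefore measure only how far these libraries scatter, and that scatter may be technical.

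TAM receptors are named after Tyro3, Axl and Mer. GAS6 binds all of them, with the highest affinity for AXL, while protein S, the product of PROS1, activates TYRO3 and MERTK. Both ligands need vitamin K-dependent carboxylation, through which they bind phosphatidylserine on dying cells and bridge it to the receptor. MET is activated by HGF, which mesenchymal cells typically secrete as an inactive precursor and which drives motility and invasive growth, and MST1R by MST1, the macrophage-stimulating protein. In melanoma, high AXL with low MITF marks a dedifferentiated state, and AXL and MET are known as receptors through which melanoma cells can tolerate inhibition of BRAF.

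Total counts per library ran from 70075002 to 78148565, and levels are given as CPM (counts per 1000000 counts of the library, scaled by the trimmed mean of M-values). The floor of 3 counts equals 0.0383 to 0.0417 CPM and covers counting error only. SOX10 fell from 233.7 ± 9.36 to 45.5 ± 3.48 CPM (SD, n = 3), so the knockout libraries kept 17.7% to 20.4% of the control mean. As a check of the labelled cell type, the melanocytic markers held S100B (32.9 ± 4.34 CPM in control libraries) and MITF (57.5 ± 2.15 CPM), whereas the pigment gene TYR had 1 count over all 6 libraries and MLANA measured 0.874 ± 0.229 CPM. In knockout libraries S100B fell to 1.28 ± 0.134 CPM and MITF rose to 138.4 ± 2.29 CPM, and of the 8 tested markers of that list 4 fell and 2 rose, where 14.0% of all tested genes rose and 14.0% fell. Of the 2, only MITF rose without control replicate 1, control replicate 3 or knockout replicate 1; the other, TYRP1, had an adjusted p of up to 0.0745 there (edgeR). Of 2 tested hepatocyte markers 1 rose and 1 fell, and of 3 tested endothelial markers 2 rose, all under 4 CPM.

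All 8 genes differed between the groups: AXL, MET, MST1R, GAS6, PROS1 and HGF rose in knockout libraries, and TYRO3 and MERTK fell (quasi-likelihood test in edgeR, with Benjamini-Hochberg adjustment over all tested genes at 0.05). The background for this count is high, since 28.0% of all 19263 tested genes passed the same threshold. None of the 8 overlapped between groups, a separation shown by 41.6% of tested genes. The median log2 fold change of the 8 genes was 0.74, against -0.02 over all tested genes, and 4 of them changed by at least 2-fold, as did 11.9% of all tested genes. The same 6 rose and the same 2 fell in every alternative fit that tested them except that against a 2-fold change, in which none of the 8 passed. That test passed 6.40% of all genes. The share was 29.8% in DESeq2, 28.0% in limma-voom, 27.6% with the size factors of DESeq2, 26.8% with total counts, 14.6% without a filter and 31.3% under a filter of 1 CPM in 3 libraries. Leaving out control replicate 1, 2 or 3 gave 22.5%, 19.2% and 29.7%, and leaving out knockout replicate 1, 2 or 3 gave 25.3%, 19.3% and 22.1%, which is the background for list counts given with a library left out.

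**Figure D1:**
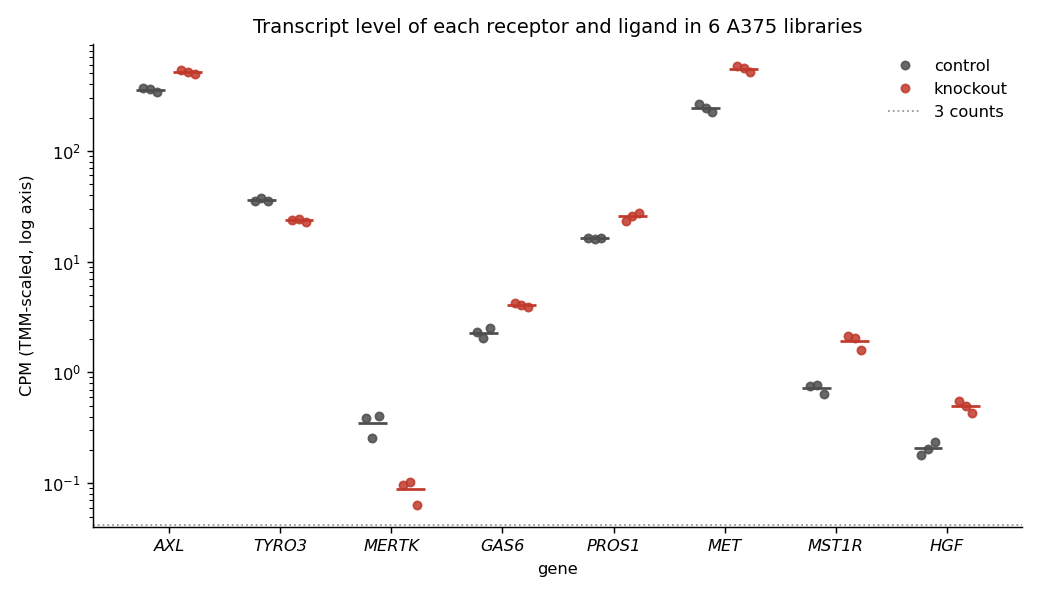
CPM on a log axis for each of the 8 genes, with a point per library, grey for the 3 control and red for the 3 knockout libraries, a bar at each mean and a dotted line at 3 counts. AXL and MET are the highest and MERTK and HGF the lowest, under 1 CPM, and the groups are separate for every gene.

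To show what lies before the start sites of the 2 most abundant receptors, which rose, and of the 2 TAM receptors that fell, the upstream sequences are printed from RefSeq (GRCh38.p14), in which all 8 genes had at least 1 entry. Each stops at the annotated start or at the first base of an annotated exon. Capitals mark matches, on either strand, to the 6 motifs searched: TGANTCA (a loose form of the AP-1 type), CACGTG and CATGTG (E-boxes of the MITF type), GGAATG (TEAD type), ACAAAG (SOX type) and GGGCGG (GC box). The N in TGANTCA stands for any base. The AXL window is chr19:41218973-41219202 and the window of its second annotated start, inside the gene, is chr19:41226505-41226754, both on the plus strand. The MET window is chr7:116671946-116672195, the TYRO3 window chr15:41558962-41559033 and the MERTK window chr2:111898357-111898478, all on the plus strand.

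AXL: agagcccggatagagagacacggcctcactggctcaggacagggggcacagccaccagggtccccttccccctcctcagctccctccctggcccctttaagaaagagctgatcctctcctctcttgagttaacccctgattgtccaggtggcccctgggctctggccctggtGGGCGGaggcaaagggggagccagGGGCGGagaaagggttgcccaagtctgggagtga
AXL second start: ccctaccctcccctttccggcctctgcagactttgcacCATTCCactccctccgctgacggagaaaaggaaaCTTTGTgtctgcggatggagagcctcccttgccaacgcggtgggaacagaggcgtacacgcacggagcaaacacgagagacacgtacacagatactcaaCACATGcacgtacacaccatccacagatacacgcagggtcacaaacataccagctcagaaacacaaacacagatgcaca
MET: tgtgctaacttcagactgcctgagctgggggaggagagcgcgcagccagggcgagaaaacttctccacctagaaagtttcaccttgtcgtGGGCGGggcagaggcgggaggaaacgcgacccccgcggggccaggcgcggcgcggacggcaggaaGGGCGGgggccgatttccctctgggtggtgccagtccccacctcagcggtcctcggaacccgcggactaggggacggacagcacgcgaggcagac
TYRO3: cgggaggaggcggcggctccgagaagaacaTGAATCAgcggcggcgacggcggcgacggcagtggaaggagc
MERTK: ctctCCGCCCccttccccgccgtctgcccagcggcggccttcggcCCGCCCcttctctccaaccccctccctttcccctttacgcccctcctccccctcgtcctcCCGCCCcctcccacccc

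In the whole windows of 300 bases, which run from 250 bases before to 50 after a start, the upstream AXL start had 2 GC boxes (first bases at -78 and -54) and no match to the other 5 motifs. The second AXL start had a TEAD-type match at -212, a SOX-type match at -178 and a CATGTG match at -79. MET had 3 GC boxes, 2 of them in the printed part, and a CACGTG match at 4 bases after the start. TYRO3 had the only AP-1-type match among the windows of the 8 genes, at -220, and 3 GC boxes outside the printed part. The window of a second annotated TYRO3 start (chr15:41559722-41560021, plus strand, not printed) held none of the 6 motifs. MERTK had 5 GC boxes (first bases at -246, -205, -145, -48 and 22) and no match to the other 5 motifs. Of 35116 RefSeq promoter windows of this length, 7.71% held TGANTCA, 7.26% CACGTG, 11.1% CATGTG, 14.0% GGAATG, 16.1% ACAAAG and 45.0% GGGCGG. Matches describe the letters only, and gene counts do not tell from which start a transcript came.

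AXL, the TAM receptor that binds GAS6 most tightly (ENSG00000167601; GRCh38 chromosome 19, 41219203 to 41261766, plus strand), stood at 371.3, 361.1 and 339.5 CPM in control replicates 1, 2 and 3 and at 538.5, 518.3 and 491.7 CPM in knockout replicates 1, 2 and 3. The lowest knockout library was well above the highest control library. AXL thus rose 1.45-fold from a level already higher than that of 98.2% of tested genes (log2 scale 0.53 with SE 0.064; edgeR adjusted p = 3.49e-04). A change larger than this in absolute size was found in 23.7% of tested genes. The MITF count, taken over the whole gene, rose in the same libraries from 57.5 to 138.4 CPM, so the rise of AXL did not come with a fall of that count. Counts per gene do not tell which MITF transcripts rose, and the MITF protein was not measured. An unnamed antisense gene (ENSG00000269652) shares 67 exon bases with AXL and had at most 16 counts in a library.

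TYRO3, the TAM receptor best known from the nervous system (ENSG00000092445; chromosome 15, 41557675 to 41583586, plus strand), went the other way. It measured 35.3, 37.4 and 34.9 CPM in the control libraries and 23.98, 24.3 and 22.7 CPM in the knockout libraries. Every knockout library lay below every control library, and the fall was 1.52-fold (log2 scale -0.60 with SE 0.063; edgeR adjusted p = 1.56e-04). The processed pseudogene TYRO3P, which resembles the TYRO3 transcript, had between 3 and 14 counts per library, beside 1726 to 2774 counts of TYRO3. Counts per gene do not tell how many reads match both.

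MERTK, the TAM receptor of macrophages and retinal epithelium that mediates uptake of dying cells (ENSG00000153208; chromosome 2, 111898479 to 112029561, plus strand), was near the limit of detection. It had 28, 19 and 29 counts in the control and 7, 8 and 5 counts in the knockout libraries, or 0.349 ± 0.0808 and 0.0877 ± 0.0209 CPM. The fall was 3.98-fold (log2 scale -1.97 with SE 0.362; edgeR adjusted p = 0.00388), the largest of the 8 in absolute size and also the least precise. Of the 9 macrophage markers, TYROBP was at 0 in all libraries, CD68 had 0 counts in the control and 3 to 5 in the knockout libraries, and the summed level of the list was 0.389 to 0.661 CPM in control and 0.856 to 1.29 CPM in knockout libraries. CSF1R, the receptor of macrophage colony-stimulating factor, made up most of that difference and rose from 0.175 ± 0.107 to 0.748 ± 0.159 CPM (edgeR adjusted p = 0.00462), so MERTK and CSF1R moved in opposite directions; the part of such cells in the MERTK result was not tested.

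Within the TAM family, the mixture of receptor transcripts therefore shifted toward AXL. Scaled by the length of merged exons, AXL held 95.6%, 95.3% and 95.3% of the summed TAM receptor level in the control libraries and 97.9%, 97.8% and 97.9% in the knockout libraries. The share of TYRO3 went from 4.51% ± 0.206 to 2.11% ± 0.0550 and that of MERTK from 0.103% ± 0.0256 to 0.0182% ± 0.00377 (SD, n = 3). The log2 ratio of AXL to TYRO3 counts, which does not depend on library scaling, was 3.32 ± 0.0696 in control and 4.45 ± 0.0385 in knockout libraries, a 2.19-fold shift. The 3 shares and this ratio each reached p = 0.1 in the exact two-sided permutation test, and with 20 possible assignments no smaller value can occur. AXL rose and TYRO3 and MERTK fell without overlap, so the separation of this ratio and of the AXL share was fixed in advance. Their p-values add nothing to the results of the single genes. The summed TAM receptor level was higher in knockout libraries, at 102.3 ± 4.62 against 72.7 ± 3.19 CPM per kilobase (exact permutation p = 0.1). Division by length sets the size of the shares: from counts alone, the AXL share differed by 4.81 percentage points between the groups, against 2.48 per length.

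**Figure D2:**
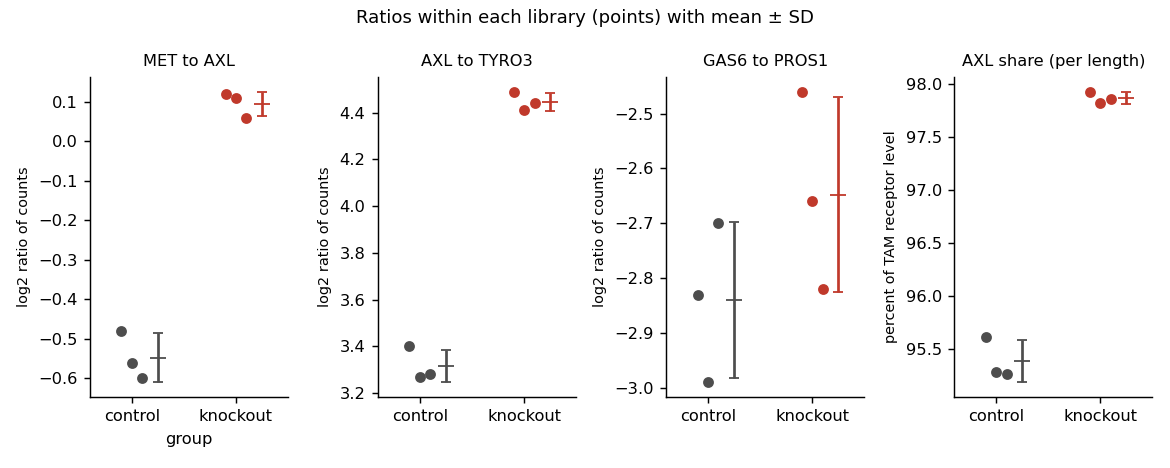
Ratios within each library, with points for the 3 control (grey) and 3 knockout (red) libraries and the mean ± SD beside them; the first 3 panels are log2 ratios of counts, the last is the percent of the summed TAM receptor level per length held by AXL. The groups are separate for MET to AXL, AXL to TYRO3 and the AXL share, and overlap for GAS6 to PROS1, and the axes do not start at 0.

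The TAM ligands both rose. GAS6, the ligand of all TAM receptors (ENSG00000183087; chromosome 13, 113820549 to 113864067, minus strand), measured 2.29, 2.04 and 2.54 CPM in the control and 4.25, 4.10 and 3.88 CPM in the knockout libraries. It rose 1.78-fold (log2 scale 0.83 with SE 0.116; edgeR adjusted p = 8.35e-04), with no overlap between groups. PROS1, the gene of the anticoagulant protein S (ENSG00000184500; chromosome 3, 93873033 to 93980003, minus strand), was the more abundant ligand, at 16.3, 16.1 and 16.5 CPM in the control and 23.5, 25.9 and 27.4 CPM in the knockout libraries. The knockout libraries scattered more (SD 1.97 CPM, n = 3) than the control libraries (SD 0.188 CPM, n = 3), without overlap, and PROS1 rose 1.57-fold (log2 scale 0.65 with SE 0.074; edgeR adjusted p = 2.56e-04).

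The proportion of the ligands was compared within each library. The log2 ratio of GAS6 to PROS1 counts was -2.83, -2.99 and -2.70 in the control and -2.46, -2.66 and -2.82 in the knockout libraries, and the groups overlapped (difference 0.19, pooled SD 0.161, exact two-sided permutation p = 0.2). This p says little, since the smallest possible is 0.1, and the difference was 0.1 without knockout replicate 1 and 0.118 without control replicate 2. Their summed level per length was 3.38 ± 0.0762 in control and 5.38 ± 0.331 in knockout libraries, in CPM per kilobase (exact permutation p = 0.1). Both ligands rose without overlap, so the p of this sum was fixed in advance. The pseudogene PROS2P, a near copy of PROS1, had at most 10 counts in a library.

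GAS6 overlaps a tested gene on the opposite strand. GAS6-AS1 shares 421 exon bases with GAS6 and measured 2.60, 1.83 and 1.44 CPM in the control and 5.99, 6.04 and 4.99 CPM in the knockout libraries, a rise of 1.53 on the log2 scale (SE 0.197, edgeR adjusted p = 5.10e-04). No source used here gives the strand option of the counting, so reads from the shared stretch may not be fully told apart. GAS6-DT, which starts next to GAS6 and runs the other way, rose from 0.147 ± 0.0573 to 0.451 ± 0.102 CPM (edgeR adjusted p = 0.0108), and the next protein-coding gene beyond the end of GAS6, TMEM255B, rose from 1.84 ± 0.189 to 4.03 ± 0.142 CPM (edgeR adjusted p = 1.27e-04). The annotated spans of TMEM255B and GAS6-AS1 overlap on the same strand, and whether they share reads was not tested. C13orf46, the nearest protein-coding gene beyond the start of GAS6, at 89.6 kb, measured 0.537 ± 0.126 CPM in control and 0.558 ± 0.0847 CPM in knockout samples, with overlapping groups (edgeR adjusted p = 0.898).

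MET, the hepatocyte growth factor receptor (ENSG00000105976; chromosome 7, 116672390 to 116798386, plus strand), had the smallest adjusted p of the 8 genes. It measured 266.0, 245.3 and 223.3 CPM in the control and 584.7, 557.9 and 512.7 CPM in the knockout libraries. The rise was 2.25-fold (log2 scale 1.17 with SE 0.083; edgeR adjusted p = 1.34e-05), and 9.89% of tested genes changed more in absolute size. MET gained on AXL: the log2 ratio of MET to AXL counts was -0.48, -0.56 and -0.60 in the control and 0.12, 0.11 and 0.06 in the knockout libraries, so that control libraries held more AXL reads and knockout libraries more MET reads. The ratio rose 1.56-fold, and the exact two-sided permutation test gave the smallest possible p of 0.1.

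MST1R, the receptor of macrophage-stimulating protein (ENSG00000164078; chromosome 3, 49887002 to 49903873, minus strand), had 54, 57 and 46 counts in the control and 152, 160 and 125 in the knockout libraries. It rose 2.67-fold from a low level, 0.719 ± 0.0709 to 1.92 ± 0.281 CPM (log2 scale 1.41 with SE 0.176; edgeR adjusted p = 4.16e-04). MET and MST1R thus both rose, from very different levels. Of the 2 antisense genes that overlap MST1R, ENSG00000228008 shares 29 exon bases with it and had 0, 5 and 7 counts in the control and 10, 11 and 11 counts in the knockout libraries, without passing the test (edgeR adjusted p = 0.195), and ENSG00000230698 was at 0 in all libraries. The ligand gene MST1, named here as the partner of MST1R and outside the rule for named genes, had 0.994 ± 0.368 CPM in control and 1.03 ± 0.249 CPM in knockout samples, with a log2 fold change of 0.04 (SE 0.304, edgeR adjusted p = 0.940).

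HGF, the ligand of MET (ENSG00000019991; chromosome 7, 81699008 to 81770438, minus strand), had 13, 15 and 17 counts in the control and 40, 39 and 34 counts in the knockout libraries. That is 0.206 ± 0.0277 and 0.496 ± 0.0611 CPM, a rise of 2.40-fold (log2 scale 1.26 with SE 0.260; edgeR adjusted p = 0.00717). Per length it stayed far under its receptor, at 0.0505 against 78.4 CPM per kilobase in knockout libraries. Fibroblasts are a usual source of HGF, and 6 of the 9 fibroblast markers rose and 1 fell, against 14.0% of all tested genes in each direction: FAP, a surface protease, from 0.353 ± 0.0568 to 2.11 ± 0.340 CPM, COL3A1 from 3, 2 and 0 counts to 31, 15 and 28 counts and LUM, the gene of lumican, from 7.84 ± 1.98 to 14.1 ± 1.88 CPM, while PDGFRA fell from 1.54 ± 0.174 to 0.939 ± 0.237 CPM (edgeR adjusted p = 0.0329). The summed level of the list was 16.7 to 19.9 CPM in control and 26.1 to 28.4 CPM in knockout libraries, and none of its members was at 0 throughout. With at least 1 CPM required in 3 libraries, 6 were tested, 3 rose and 1 fell. The median log2 fold change of the list was then 0.35, against 0.91 in the main fit. Only 3 of the 9 rose without control replicate 1 or without knockout replicate 1, and 4 without control replicate 2 or without knockout replicate 2. None fell with total counts or without control replicate 2, knockout replicate 2 or knockout replicate 3, and the adjusted p of PDGFRA reached 0.116 (edgeR). The part of these markers in the HGF result was not tested.

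Per kilobase of merged exon, the levels of the 8 genes spanned more than 3 orders of magnitude. In control libraries the order was AXL (69.3 ± 3.16 CPM per kilobase), MET (34.8 ± 3.04), TYRO3 (3.28 ± 0.123), PROS1 (2.998 ± 0.0345), GAS6 (0.381 ± 0.0418), MST1R (0.137 ± 0.0135), MERTK (0.0743 ± 0.0172) and HGF (0.0210 ± 0.00282). In knockout libraries it was AXL (100.1 ± 4.55), MET (78.4 ± 5.17), PROS1 (4.70 ± 0.362), TYRO3 (2.16 ± 0.0773), GAS6 (0.679 ± 0.0314), MST1R (0.365 ± 0.0536), HGF (0.0505 ± 0.00623) and MERTK (0.0187 ± 0.00445). PROS1 passed TYRO3, and HGF passed MERTK. No neighbours in either order overlapped in range, but TYRO3 and PROS1 in control libraries differed only 1.09-fold, and the order of genes this close rests on the annotated length, which merges the exons of all transcripts.

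Among 58 receptor tyrosine kinase genes ranked by level per kilobase, AXL stood highest in both groups. In control libraries EPHA2, an ephrin receptor, was next (43.1 ± 1.95 CPM per kilobase) and MET the third. In knockout libraries MET was the second and EPHA2, at 61.05 ± 4.08, the third. AXL made up 23.7% of the summed receptor kinase level in control and 30.3% in knockout libraries, and MET 11.9% and 23.7%. ERBB3, a neuregulin receptor that can partner MET, went from 10.4% to 0.410% of the sum. TYRO3 ranked 12 and 13, MST1R 31 and 26, and MERTK 35 and 46 in control and knockout libraries.

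Of the 53 receptor kinase genes outside these families, 41 were tested, of which 13 rose and 18 fell, with a median log2 fold change of -0.28, while 28.0% of all tested genes passed in either direction. With at least 1 CPM required in 3 libraries, 7 rose and 16 fell, with a median of -0.58. ROS1 rose from 0.417 ± 0.140 to 3.46 ± 0.342 CPM and EPHB6 from 0.0780 ± 0.0167 to 0.915 ± 0.183 CPM, while FLT1, a VEGF receptor, fell from 30.1 ± 2.88 to 3.69 ± 0.315 CPM. RYK, a WNT receptor, at 170.1 ± 13.9 and 155.3 ± 9.25 CPM, was the most abundant of those that did not pass (edgeR adjusted p = 0.263).

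**Figure D3:**
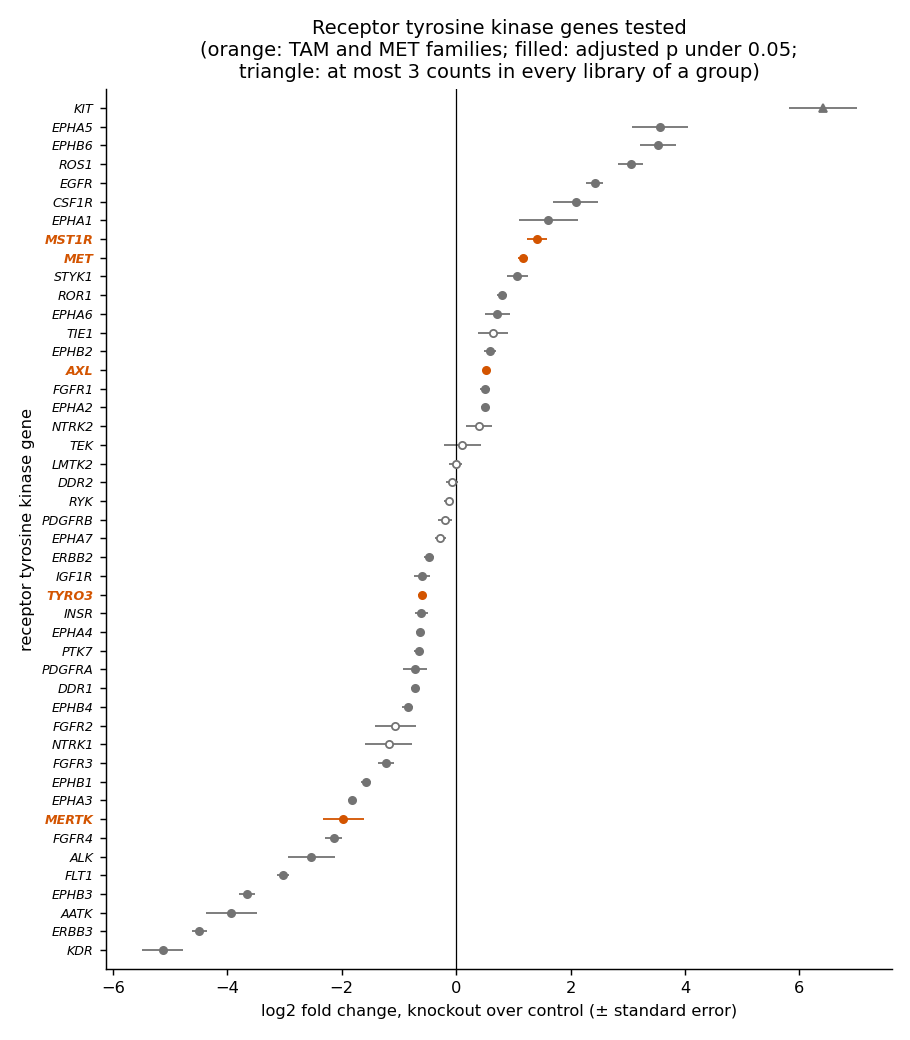
Log2 fold change of knockout over control, with standard errors, for the 46 receptor tyrosine kinase genes tested, sorted by size, with the TAM and MET families in orange, filled points past the threshold and a triangle for a gene with at most 3 counts in every library of a group, whose fitted value depends on the prior count. MST1R (1.41), MET (1.17) and AXL (0.53) lie right of 0 and TYRO3 (-0.60) and MERTK (-1.97) left of it.

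The genes next to the 8 members were compared for position. Of 15 nearest protein-coding neighbours, on both sides of each member except for PROS1 with one side, 14 were tested, 6 rose and 1 fell, beside a background of 14.0% of tested genes higher and 14.0% lower. Downstream of AXL, HNRNPUL1 begins within 0.73 kb of the annotated end; it stood at 380.5 ± 28.8 and 317.5 ± 30.5 CPM and did not pass (log2 fold change -0.26, edgeR adjusted p = 0.0592). CYP2S1 on the other side of AXL rose from 0.436 ± 0.0675 to 0.865 ± 0.139 CPM (edgeR adjusted p = 0.0112, and 0.0505 without control replicate 2). CAV1, the caveolin gene 111 kb from MET, rose from 509.6 ± 10.7 to 790.6 ± 8.20 CPM (log2 fold change 0.63, edgeR adjusted p = 4.18e-05), whereas CAPZA2, 12.7 kb beyond the other end of MET, stood at 238.4 ± 49.5 and 292.2 ± 48.2 CPM with overlapping groups (edgeR adjusted p = 0.226).

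None of the neighbours of TYRO3 and MERTK fell past the threshold. RPAP1 and MGA beside TYRO3 gave log2 fold changes of -0.16 and -0.08 (edgeR adjusted p = 0.320 and 0.680), ANAPC1 beside MERTK gave -0.05 (edgeR adjusted p = 0.789), and TMEM87B on its other side rose by 0.32 (edgeR adjusted p = 0.00505). Beside MST1R, MON1A measured 13.7 ± 1.30 CPM in control and 12.5 ± 0.347 CPM in knockout samples (edgeR adjusted p = 0.314), and CAMKV, with 1 count over all libraries, was not tested. Both nearest protein-coding genes of HGF rose, though they lie far from it. SEMA3C, a semaphorin at 777 kb, rose from 133.9 ± 5.66 to 174.8 ± 3.04 CPM. CACNA2D1, a calcium channel subunit at 176 kb, rose from 21.9 ± 0.750 to 29.2 ± 1.99 CPM. EPHA3, an ephrin receptor and the nearest protein-coding gene on one side of PROS1, at 4390 kb, fell from 140.9 ± 9.25 to 40.02 ± 0.513 CPM.

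Genes that supply or process the ligands changed in both directions. Of 14 listed, 11 were tested, 3 rose and 2 fell, with a median of -0.03, while 14.0% of all tested genes rose and 14.0% fell. Under the filter of 1 CPM in 3 libraries, 7 were tested, 1 rose and 1 fell. PLAU, the urokinase that can activate pro-HGF, rose from 0.179 ± 0.0912 to 1.48 ± 0.517 CPM (log2 fold change 3.04, edgeR adjusted p = 5.80e-04), and SPINT2, an inhibitor of HGF-activating proteases, from 0.0505 ± 0.0163 to 0.314 ± 0.105 CPM (edgeR adjusted p = 0.00251). LGALS3, the gene of galectin-3, a reported ligand of MERTK, rose from 44.04 ± 8.38 to 74.6 ± 11.2 CPM, and TUB, the gene of the bridging protein tubby, fell from 10.9 ± 1.15 to 6.89 ± 0.419 CPM. HPN, the gene of hepsin, which activates pro-HGF, had 51, 41 and 30 counts in the control and 1, 3 and 1 in the knockout libraries, a ratio of 25.6 with an exact 95% counting interval of 10.7 to 80.2. That interval pools the libraries of each group and covers counting error only, not the differences between libraries. VKORC1L1, of the vitamin K cycle on which GAS6 and PROS1 depend, stood at 132.0 ± 2.16 and 129.1 ± 0.575 CPM (edgeR adjusted p = 0.719).

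The list of receptor shedding and turnover holds genes that act for or against these processes. Of its 15 tested genes, 4 fell and none rose (median -0.14), while 28.0% of all tested genes passed in either direction. The number called is thus near the background. The 4 are TIMP3, ADAM10, CBLB and LRIG1, the last of them named after its values were seen. ADAM10, a sheddase of AXL and MET, fell from 311.8 ± 16.3 to 198.7 ± 8.11 CPM (log2 fold change -0.65, edgeR adjusted p = 1.09e-04), and TIMP3, which inhibits such sheddases, from 1538 ± 76.9 to 274.5 ± 10.4 CPM (log2 fold change -2.49, edgeR adjusted p = 9.25e-08). CBLB, a ubiquitin ligase, fell from 18.9 ± 0.221 to 15.05 ± 1.51 CPM (edgeR adjusted p = 0.0184, and up to 0.0888 with a library left out). NEDD4, another ubiquitin ligase, was the most abundant gene that did not pass, at 161.7 ± 2.83 and 146.3 ± 2.60 CPM (edgeR adjusted p = 0.0797). Only 2 of the 15 passed without control replicate 1, control replicate 2, knockout replicate 2 or knockout replicate 3; CBLB and LRIG1 were the genes lost.

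Among 14 co-receptors and partners, 6 rose and 5 fell (median 0.13), against 14.0% of all tested genes in each direction. NRP1, a neuropilin that binds HGF, rose from 102.6 ± 5.62 to 233.4 ± 13.4 CPM (log2 fold change 1.19, edgeR adjusted p = 4.37e-06), close to the fold of MET, while its paralog NRP2 fell from 99.2 ± 10.4 to 52.5 ± 5.24 CPM (log2 fold change -0.92, edgeR adjusted p = 1.94e-04). The integrin pair split as well: ITGB4 rose from 6.27 ± 0.981 to 15.0 ± 1.32 CPM and ITGA6 fell from 540.1 ± 49.03 to 326.5 ± 30.5 CPM. EGFR, which can cross-activate with AXL and MET, rose 5.35-fold and ERBB3 fell 22.5-fold. PLXNB2, a plexin, stood at 58.3 ± 7.49 and 57.4 ± 6.42 CPM (edgeR adjusted p = 0.914).

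Of 23 adaptor and signalling genes downstream of the receptors, 10 fell and 1 rose (median -0.15), against 14.0% of all tested genes in each direction. SRC fell from 50.9 ± 1.13 to 27.6 ± 2.54 CPM (log2 fold change -0.89, edgeR adjusted p = 4.85e-05), the adaptor gene NCK2 from 12.05 ± 0.607 to 6.33 ± 0.590 CPM and PIK3R1, the regulatory subunit of PI3 kinase that TAM receptors bind, from 60.2 ± 6.91 to 35.01 ± 2.69 CPM. BCAR1, the adaptor p130Cas, rose from 31.7 ± 1.15 to 41.6 ± 2.52 CPM. The phosphatase gene PTPN11, at 485.0 ± 51.6 and 470.1 ± 47.1 CPM, did not pass (edgeR adjusted p = 0.788). The number that fell was 6 without control replicate 1, 6 without control replicate 2 and 5 without knockout replicate 2.

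Transcription factors reported to act on these receptor genes were divided, with 5 of 17 higher and 5 lower (median 0.11), against 14.0% of all tested genes in each direction. JUN, an AP-1 factor, rose from 13.8 ± 0.279 to 37.6 ± 1.44 CPM, and FOS fell from 2.52 ± 0.142 to 0.768 ± 0.165 CPM. MITF, which is known to act on MET, rose 2.41-fold, and MET rose too. NR1H3, a liver X receptor of the kind that acts on MERTK in macrophages, rose from 7.30 ± 0.790 to 12.8 ± 0.611 CPM while MERTK fell. Whether any of these factors acted on a receptor gene in these cells was not tested. WWTR1, the gene of TAZ, fell from 871.1 ± 18.5 to 505.2 ± 19.5 CPM, PAX3 fell from 15.02 ± 0.952 to 11.4 ± 0.684 CPM, and YAP1 stood at 198.0 ± 9.12 and 194.1 ± 9.42 CPM (edgeR adjusted p = 0.791). The number lower was 3 instead of 5 when scaled by total counts and without control replicate 1, control replicate 2 or knockout replicate 2.

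**Figure D4:**
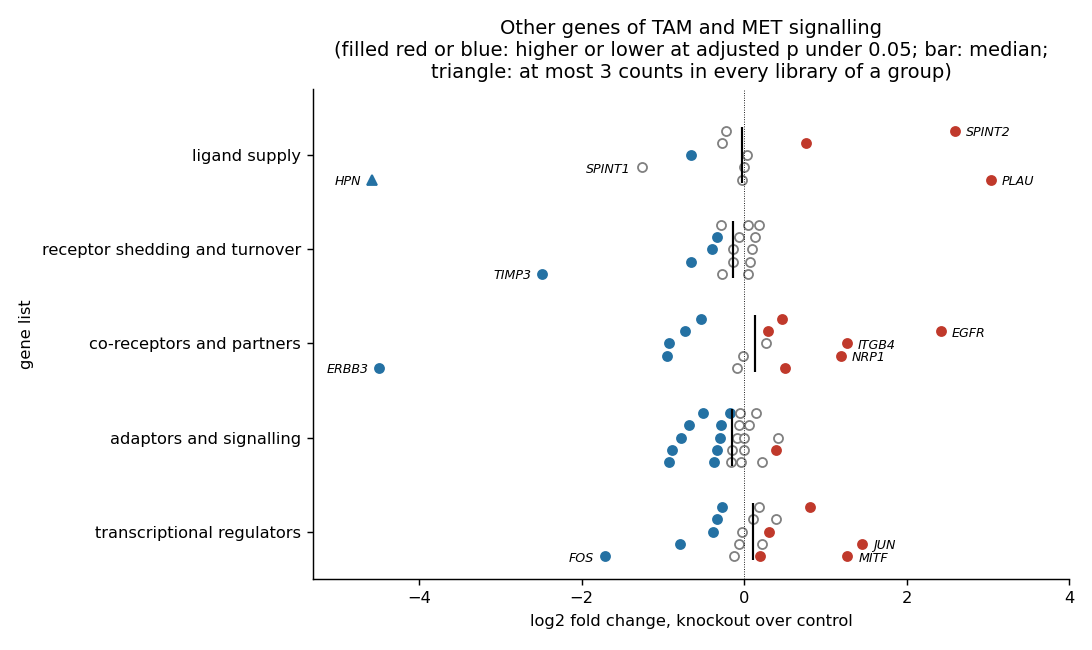
Log2 fold change of knockout over control for the tested genes of 5 lists, a point per gene, red or blue where it passed the threshold, open grey where it did not, with a bar at each list's median and a triangle for a gene with at most 3 counts in every library of a group. Among adaptors and signalling genes 10 points are blue and 1 is red, and the named outer points include ERBB3 (-4.49), HPN (-4.58, which depends on the prior count), TIMP3 (-2.49) and PLAU (3.04).

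The genes whose levels followed a member most closely were found by Pearson correlation of log2 CPM over the 6 libraries, among 10040 protein-coding genes whose mean reached 5 CPM, for the 4 members at that level. These values are descriptive, since the libraries fall in 2 groups and genes also shared differences between replicates. MET and AXL, for example, both decreased from replicate 1 to replicate 3 within each group. MET was followed by VCL, the gene of vinculin (r = 0.9999; 150.6 ± 12.3 to 313.8 ± 19.2 CPM), and ITGA2, a collagen-binding integrin (r = 0.9999; 99.1 ± 8.67 to 226.3 ± 16.3 CPM). AXL was followed by PODXL, the gene of podocalyxin (r = 0.9996; 51.5 ± 4.21 to 104.7 ± 10.1 CPM), and MALT1, a signalling protease (r = 0.9996; 101.2 ± 6.01 to 176.2 ± 11.1 CPM). TYRO3 was followed by GPR176, an orphan receptor (r = 0.9991; 32.3 ± 0.976 to 19.1 ± 0.828 CPM), and IL27RA, a cytokine receptor (r = 0.9989; 19.4 ± 0.635 to 11.9 ± 0.447 CPM). The genes closest to PROS1, WDR44 (r = 0.9989) and LONRF3 (r = 0.9986), had log2 fold changes of only 0.09 and 0.29, and that of PROS1 was 0.65.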

How the data were processed

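Gene expression was measured by RNA sequencing (a stranded mRNA kit, per the labels' protocols) in 3 control and 3 SOX10 knockout A375 libraries. HISAT2, HTSeq and the build hg38 are named, per the submitters' processing notes; the sources used here give no versions, strand option or annotation release. The deposited table holds unnormalized counts of reads for each gene. Of 58721 identifiers, 58676 matched GENCODE release 29 (GRCh38), from which symbols, coordinates and merged exon lengths were taken; a current symbol table and RefSeq promoter windows were also used.

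Counts were filtered with filterByExpr, scaled by TMM and tested in edgeR 4.0.16 (R 4.3.3) by the two-sided quasi-likelihood test of knockout against control, adjusted by Benjamini-Hochberg over 19263 genes with a threshold of 0.05. Standard errors were derived from the same fit. Ratios and shares were tested by exact permutation over samples. Named genes were the 8 members, SOX10, up to 3 genes per direction with the smallest p from each pathway or marker list and its most abundant gene not past the threshold, nearest neighbours, close copies and the 2 genes most like each member. One further neighbouring gene is not reported here. The members and lists were chosen with earlier results of these data known. Alternatives were DESeq2 1.42.0, limma-voom (limma 3.58.1), other scalings and filters, glmTreat against a 2-fold change, a replicate block and leaving out each library. The procedure was tested on simulated data. Libraries within a group differed beyond sampling noise (chi-square per degree of freedom 13.3 to 74.2), so none was counted as a duplicate. Python 3.11.15 with numpy 2.4.6, pandas 2.3.3, scipy 1.17.1 and matplotlib 3.10.9 was used for tables and figures.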

Additional observations from a re-analysis of the deposited data

How the results depend on the processing

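The directions of all 8 genes held in every alternative that tested them. Adjusted p-values over the alternatives other than glmTreat stayed under the threshold, the highest being 0.0346 for HGF and 0.0197 for MERTK, which could not be tested with at least 1 CPM required in 3 libraries. In glmTreat against a 2-fold change none of the 8 passed. The log2 fold changes were 0.53 for AXL, -0.60 for TYRO3, -1.97 for MERTK, 0.83 for GAS6 and 0.65 for PROS1. For MET, MST1R and HGF they were 1.17, 1.41 and 1.26. The adjusted p in glmTreat was 0.0598 for MERTK, 0.0846 for MST1R, 0.123 for MET and 0.668 for HGF. That test asks for a larger change and passed 1232 genes, 659 higher and 573 lower, against 5396 in all, 2694 higher and 2702 lower. Leaving out 1 library gave 1794 to 2958 lower genes, lowest without knockout replicate 2.

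The replicate block passed 9813 genes, 4637 higher and 5176 lower, or 50.9% of those tested, and left the call of every member as it was. Under it, 3 rose and 8 fell of the shedding and turnover list, 3 and 5 of ligand supply, 4 and 13 of the adaptors, 9 and 7 of the transcriptional regulators and 6 and 2 of the fibroblast markers. The labels give same-numbered libraries nothing in common but the number. Their deviations from the group means correlated at 0.302, -0.00438 and 0.314, and not every library correlated best with its own number. Control replicate 3 and knockout replicate 1 correlated at -0.332, and control replicate 1 and knockout replicate 3 at -0.284. Replicates 1 and 3 thus differed in a similar way in both groups, and the main fit left this difference in the scatter. Without division by length the AXL share differed by 4.809 percentage points, against 2.483; the smaller weight of the long TYRO3 annotation follows from the division itself. Depth limits MERTK and HGF, with 5 to 40 counts per library.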
